A study of Mus musculus with 4 samples.

Results

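This account describes the fragments of tRNA-Val, the transfer RNAs that carry valine, in bone marrow of mice without the RNA methyltransferase Dnmt2. tRNA-Val is 1 of 23 tRNA families in the deposited tables and was taken by its name, with every position of its 2 tables (one per replicate number) and the forward-strand columns. The family was followed in 2 libraries of Dnmt2-/- mice and 2 of wild-type (WT) mice, all C57BL/6, bone marrow, postnatal day 8. Small RNA was sequenced from total RNA whose ends had been repaired with T4 polynucleotide kinase. The labels do not say how the Dnmt2 allele was made, whether animals were pooled, or whether the libraries of a genotype come from separate animals. The p-values below therefore speak for the variation among these 4 libraries alone, part or all of which may come from the technique. The tables hold tRNA families only, so neither bone marrow markers nor the Dnmt2 transcript could be read from them.

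tRNAs fold into a cloverleaf whose anticodon sits in a loop at the middle of the molecule. Ribonucleases such as angiogenin cut in that loop under stress and leave a long 5′ fragment and a long 3′ fragment, while cuts in the D loop or the T loop leave shorter 5′ and 3′ fragments. Dnmt2 methylates a cytosine on the 3′ side of the anticodon, at position 38, in tRNA-Asp, in tRNA-Gly with the anticodon GCC and in tRNA-Val with the anticodon AAC, and this methyl group is known to protect those tRNAs from cleavage.

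The valine tables do not separate anticodons. RefSeq (assembly GRCm38.p6) names 24 nuclear tRNA-Val genes in the mouse, of which 12 carry the anticodon CAC, 9 the Dnmt2 substrate anticodon AAC and 3 the anticodon TAC. A change in the substrate alone is therefore diluted in these values by reads of the other anticodons, in a proportion that the tables do not give. Of the 24 genes, 22 are 73 bases long and 2 are 72, while the valine table has 72 rows. In 8 of 8 families whose numbered RefSeq genes share a single length, the table likewise had 1 row fewer than that length. Positions below are rows counted from 1, and a position can thus lie 1 base away from the standard tRNA number. Families were set side by side by row number, and their tables had 70 to 85 rows. Their structures were not aligned, so the same position in different families need not be the same base of the tRNA. No sequence is shown, because the tRNA sequences were not used here.

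Values are coverage per position in deposited units. In every library each value was a whole multiple of a single step, read here as the worth of 1 read. The libraries held 220277 to 423186 reads over the peaks of the 23 families. Of these, the highest position of tRNA-Val had 3979 and 8388 reads in the Dnmt2-/- libraries (replicates 1 and 2), and 9977 and 12682 reads in the WT libraries. Dnmt2-/- replicate 1 thus gives the least precise valine profile, and WT replicate 2 the most precise.

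tRNA-Val was seen mainly as 5′ fragments that began at the first row. Coverage at position 1 was already 95.1% and 94.3% of the highest coverage in the Dnmt2-/- libraries, against 96.6% and 95.05% in the WT libraries. A rise in coverage counts the reads that begin at a position minus those that end just before it. Of the summed rises, 86.1% and 89.7% lay at position 1 in the Dnmt2-/- libraries, against 92.4% and 91.6% in the WT libraries. At position 2 lay 1.25% and 1.62% in the Dnmt2-/- libraries, against 0.940% and 0.836% in the WT libraries. Net rises at the first row thus took a smaller share in both Dnmt2-/- libraries, and those at the second row a larger one. Shares of one sum depend on each other, so larger rises elsewhere lower the share at the first row. These rises were neither fitted nor set against those of other families. Coverage stayed near its highest value up to position 15 in both genotypes. It then went down in 3 steps, after position 15 in the D loop region, after position 23, and from position 31 to position 36 across the anticodon loop. Past the loop a low 3′ part remained, at no more than 14.3% of the highest coverage past position 38 in any library. The profile of tRNA-Val was most like those of Lys (Pearson r = 0.977), Cys (r = 0.976) and GlyGCC (r = 0.965), by the mean share of coverage over the first 70 positions. These correlations describe the shape of coverage along a tRNA and share their libraries.

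**Figure D1:**
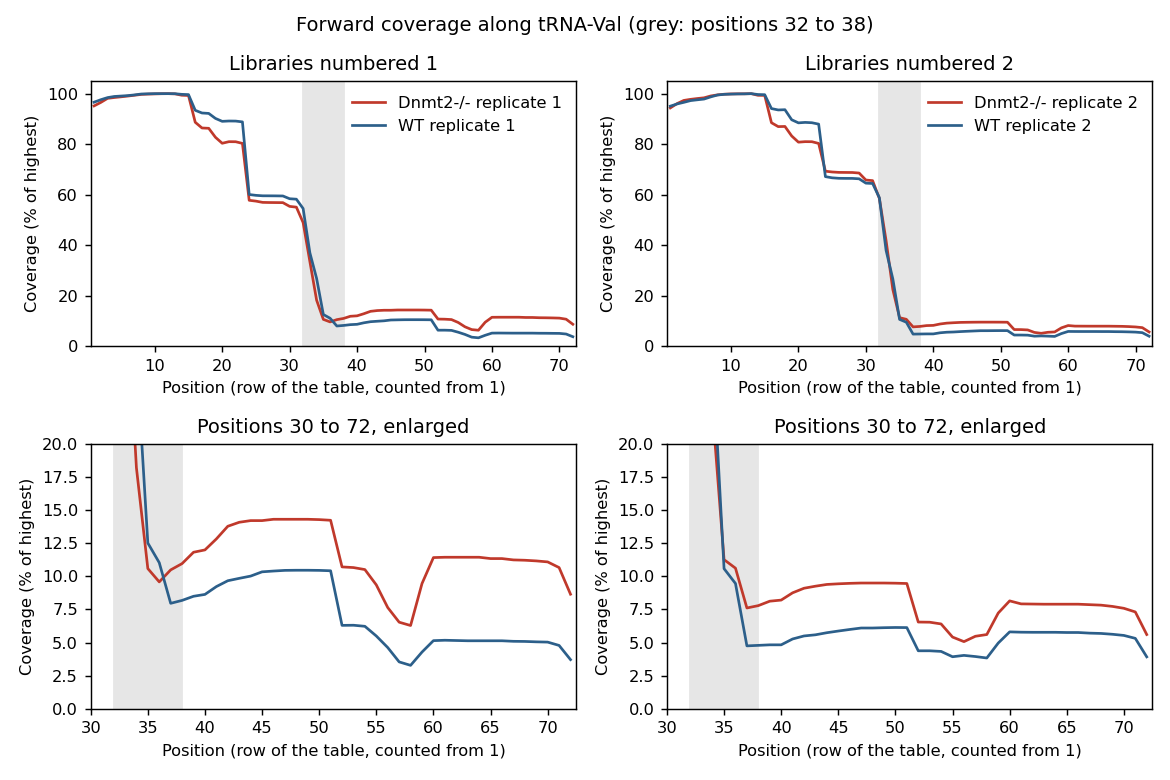
Forward coverage along tRNA-Val, as percent of the highest coverage of the same library (y axis), by position (x axis), for the Dnmt2-/- and the WT library of each replicate number. The upper panels show all 72 positions and the lower ones the positions past 30 enlarged. From position 37 on the Dnmt2-/- line lies above the WT line in both numbers. At position 23 it lies below (80.3% in both Dnmt2-/- libraries, against 88.8% and 87.9% in the WT libraries).

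Where the 5′ fragments ended was read from the drops in coverage. A drop after a position counts the reads that end there minus the reads that begin at the next one, so it is a lower limit on the ends. Drops are given as percent of the summed rises of the family, which were 4397 and 8826 reads in the Dnmt2-/- libraries and 10429 and 13157 reads in the WT libraries. The summed rises are net as well, so these percentages are not lower limits on the share of reads that end. Exact (Clopper-Pearson) 95% intervals of these shares take net steps as if they were counts of independent reads. Net steps are differences of ends and starts, and reads are not independent molecules. The intervals thus cover counting error in part at best, and no variation between libraries. For the named positions the widest spanned 2.40 percentage points.

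Ends in the D loop region were more frequent in both Dnmt2-/- libraries than in either WT library. The drop after position 15 was 9.60% (interval 8.74% to 10.5%) and 10.3% (9.66% to 10.9%) of the summed rises in the Dnmt2-/- libraries. In the WT libraries it was 5.95% (5.51% to 6.43%) and 5.30% (4.92% to 5.69%). The genotypes did not overlap there, and the Dnmt2-/- over WT ratio was 1.61 in number 1 and 1.94 in number 2. After position 16, the share was 2.05% and 1.46% in the Dnmt2-/- libraries, against 1.02% and 0.532% in the WT libraries. The difference had the same direction, again with no overlap. After position 19 it was 2.14% and 2.33% in the Dnmt2-/- libraries, against 1.10% and 1.18% in the WT libraries. Summed over positions 1 to 22, these short 5′ ends made up 18.7% ± 0.418 in Dnmt2-/- and 11.4% ± 0.767 in WT (SD, n = 2 each). Of 9 families with enough ends in this stretch, 2 (22.2%) had a higher share in both Dnmt2-/- libraries, Val and Ala. After position 18 the valine genotypes overlapped, with 3.23% and 3.58% in the Dnmt2-/- libraries, against 1.90% and 3.85% in the WT libraries. Positions 15, 16 and 19, and the ends at positions 31 and 36 given below, were singled out after their values were seen.

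The next step lay after position 23. The share of ends there was 20.4% and 10.5% in the Dnmt2-/- libraries, against 27.5% and 20.1% in the WT libraries. Dnmt2-/- was lower within each number (ratios 0.741 and 0.522), but Dnmt2-/- replicate 1 lay marginally above WT replicate 2, so the genotypes overlapped. In the WT libraries this was the most frequent end in replicate 1 and all but level with the one at position 32 in replicate 2.

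**Figure D2:**
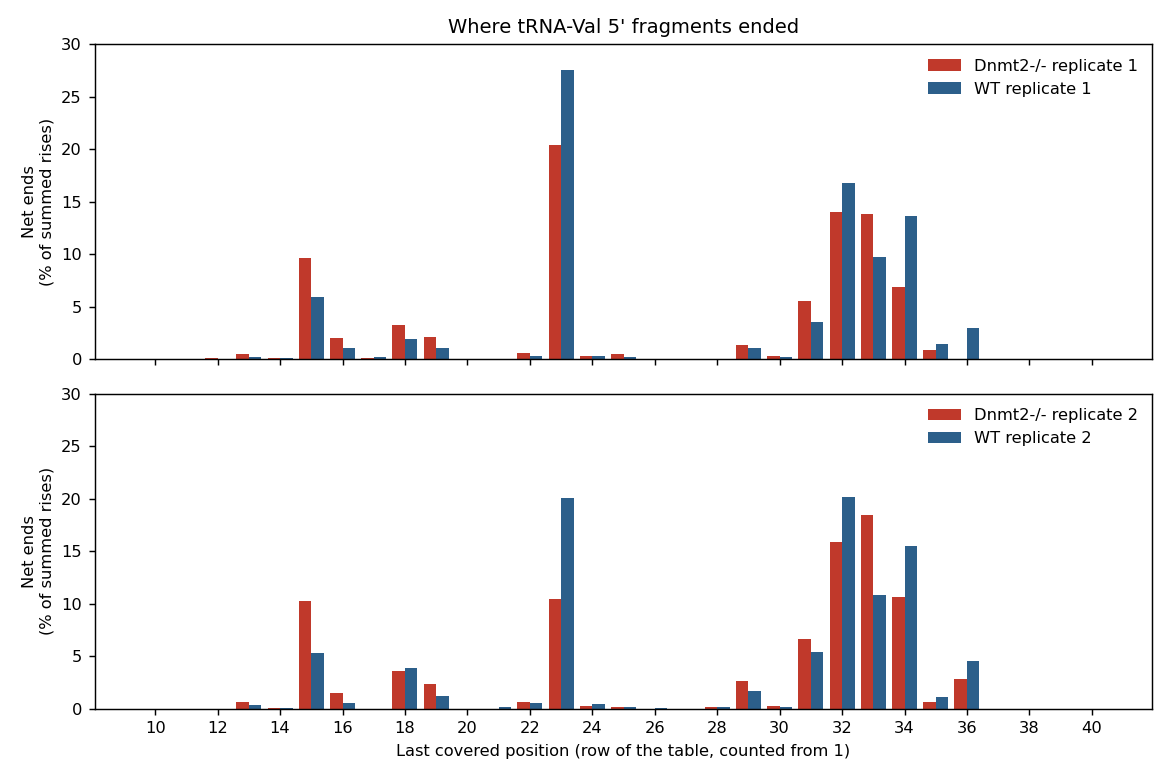
Net ends of tRNA-Val (y axis, percent of the summed rises of the library) by last covered position, 10 to 40 (x axis), with Dnmt2-/- and WT bars side by side in libraries numbered 1 (top) and 2 (bottom). The Dnmt2-/- bar is the taller one at positions 15, 31 and 33 and the shorter one at positions 23, 32 and 34 in both numbers.

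The longer 5′ fragments ended in the anticodon loop, and the ends were placed differently within it in the 2 genotypes. After position 32 the share was 13.96% and 15.9% in the Dnmt2-/- libraries, against 16.8% and 20.1% in the WT libraries. After position 33 it was 13.9% (12.8% to 14.9%) and 18.4% (17.6% to 19.2%) in the Dnmt2-/- libraries, against 9.72% (9.16% to 10.3%) and 10.9% (10.3% to 11.4%) in the WT libraries. After position 34 it was 6.89% and 10.6% in the Dnmt2-/- libraries, against 13.7% and 15.5% in the WT libraries. At each of these 3 positions the genotypes did not overlap, with Dnmt2-/- above WT at position 33 and below it at positions 32 and 34. After position 31, just before the loop, the Dnmt2-/- libraries had 5.53% and 6.67% of ends, against 3.54% and 5.42% in the WT libraries. After position 36 the net ends were 0 and 2.86% in the Dnmt2-/- libraries, against 2.93% and 4.54% in the WT libraries; in Dnmt2-/- replicate 1 the reads that begin at position 37 outnumber those that end at position 36.

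The same shift was seen among the loop ends alone. Of the net ends at positions 31 to 36, position 33 held 33.7% (interval 31.5% to 35.9%) and 33.4% (32.1% to 34.8%) in the Dnmt2-/- libraries, against 20.2% (19.1% to 21.4%) and 18.9% (18.0% to 19.8%) in the WT libraries. Position 34 held 16.7% and 19.2% in the Dnmt2-/- libraries, against 28.5% and 26.9% in the WT libraries. Position 32 held 33.9% and 28.9% in the Dnmt2-/- libraries, against 34.9% and 35.02% in the WT libraries. The mean end within this window was 32.7 ± 0.166 in Dnmt2-/- and 33.02 ± 0.0185 in WT (SD, n = 2 each). This window and these shares were chosen after the ends had been seen and carry no test.

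**Figure D3:**
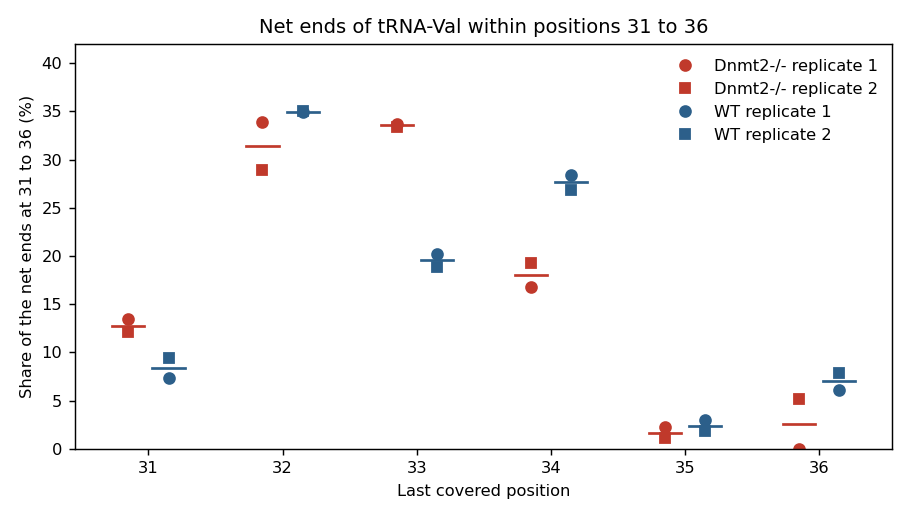
Share of the net ends at positions 31 to 36 that fell on each of these positions (y axis, percent; x axis, last covered position), 1 symbol per library and a line at the mean of each genotype. The Dnmt2-/- libraries stand at 33.7% and 33.4% at position 33, above the WT libraries at 20.2% and 18.9%, and below the WT libraries at position 34.

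Across all families, limma did not call any of these ends. It was fitted to the 238 drops of at least 1% of the summed rises in the 20 families with at least 100 reads at their peak, on log2(percent + 0.5), and 0 passed the threshold of 0.05 after Benjamini-Hochberg adjustment (0.0% of drops), with 7 at an unadjusted p under 0.05 (2.94%), none of them among the 15 of tRNA-Val. This fit was added after the ends of tRNA-Val had been seen. The log2 difference, Dnmt2-/- minus WT, was 0.77 (SE 0.35) at position 15, −0.67 (SE 0.49) at position 23, −0.29 (SE 0.36) at position 32, 0.61 (SE 0.37) at position 33 and −0.73 (SE 0.40) at position 34, and each had an adjusted p of 0.864 or above. Of the 15 valine drops, 7 had both Dnmt2-/- libraries above both WT libraries and 4 had both below. Over all 238 drops these shares were 18.5% above and 16.4% below. Drops of a profile share their denominator and their reads, so the 15 are not independent of each other.

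Other families were compared at the same row numbers of their own tables. The rows were not aligned by structure, so a row need not be the same loop base in each family. Of 18 families with enough ends at positions 31 to 36 (at least 1% of the summed rises in each library), 3 had a higher share at position 33 in both Dnmt2-/- libraries (16.7% of families) and 0 a lower one. The other two were Glu, with 32.4% and 28.4% in the Dnmt2-/- libraries against 23.9% and 19.9% in the WT libraries, and Lys, with 36.5% and 31.2% against 29.7% and 27.3%. At position 34 the share was lower in both Dnmt2-/- libraries in 4 families (22.2%), namely Val, Glu, GlyGCC and Gly_non_GCC, and higher in 1, Leu (5.56%). In the substrate family GlyGCC position 34 held 4.32% and 7.24% in the Dnmt2-/- libraries, against 9.91% and 17.7% in the WT libraries. In the substrate family Asp it held 40.7% and 14.9% in the Dnmt2-/- libraries, against 25.8% and 10.8% in the WT libraries. Families without a substrate of Dnmt2 thus stood on both lists, and whether tRNA-Val differs from them was not tested. At position 32 both Dnmt2-/- libraries were lower in Val and Trp, but higher in Ala, Arg, Asp, Gly_non_GCC and Met. At position 36 both were lower in Val, Glu and Lys. At position 31 both were higher in Val, but lower in Arg, Gln and Lys. In GlyGCC position 33 held 1.02% and 1.71% in the Dnmt2-/- libraries, against 1.36% and 2.72% in the WT libraries, with overlap.

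Coverage left across the anticodon loop was measured at row 38, which can lie 1 base away from the methylated cytosine. Reads that begin in the loop count there as well. The net rise at position 37 was 36 and 0 reads in the Dnmt2-/- libraries, against 0 and 0 in the WT libraries. At position 38 it was 19 and 15 reads, against 22 and 5. How much of the coverage came from reads that cross the loop cannot be read from it. Position 38 held 436 and 653 reads in the Dnmt2-/- libraries, against 816 and 607 reads in the WT libraries. Relative to the highest coverage of the family this was 10.96% and 7.78% in the Dnmt2-/- libraries, against 8.18% and 4.79% in the WT libraries. Dnmt2-/- was higher within each number (ratios 1.34 and 1.63), but Dnmt2-/- replicate 2 lay below WT replicate 1, so the genotypes overlapped. Of the 23 families, 5 (21.7%) had both Dnmt2-/- libraries above both WT libraries in this measure. With limma over these families the log2 difference was 0.56 (SE 0.42, 95% interval −0.57 to 1.68, adjusted p = 0.948); 0 families passed, and 0 had an unadjusted p under 0.05 (0.0%). The lowest coverage within the loop region lay at position 36 in Dnmt2-/- replicate 1 and at position 37 in the other libraries. It was 9.58% and 7.61% of the highest coverage in the Dnmt2-/- libraries, against 7.96% and 4.75% in the WT libraries.

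Most of the coverage at positions 32 to 38 lay at the first 3 of them, before the drops. The loop held 4.53% and 5.13% of valine coverage in the Dnmt2-/- libraries, against 5.13% and 4.99% in the WT libraries, and 3.21% and 3.93% of valine coverage in the Dnmt2-/- libraries, against 3.84% and 4.03% in the WT libraries lay at its first 3 positions alone. Neither the loop share nor its log2 odds set the genotypes apart (limma log2 odds difference −0.072, SE 0.22, adjusted p = 0.928); 0 families passed (0.0%), and 1 other family had an unadjusted p under 0.05 (4.35%). Its sign turned when the window was moved, as given in the closing section.

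Coverage of the 3′ part of tRNA-Val went up in 2 places. The first lay between positions 37 and 47, in and just after the anticodon loop, and led to a plateau at positions 46 to 51. The plateau reached 14.3% and 9.49% of the highest coverage in the Dnmt2-/- libraries, against 10.5% and 6.13% in the WT libraries. A drop followed after position 51, with 3.18% and 2.76% of the summed rises in the Dnmt2-/- libraries, against 3.94% and 1.69% in the WT libraries. Reads that end there do not reach the 3′ end of the tRNA.

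The second place was positions 59 and 60, in the T loop region, where short 3′ fragments begin. Of the summed rises, 4.64% and 2.41% lay at these 2 positions in the Dnmt2-/- libraries, against 1.78% and 1.90% in the WT libraries. Just before it, position 58 still held 250 and 470 reads in the Dnmt2-/- libraries, against 327 and 486 reads in the WT libraries. The net rise at position 59 was 126 and 136 reads in the Dnmt2-/- libraries, against 100 and 143 reads in the WT libraries, and at position 60 it was 78 and 77 reads in the Dnmt2-/- libraries, against 86 and 107 reads in the WT libraries. In each library the reads already present at position 58 outnumbered the net rise. The plateau that followed reached 455 and 683 reads in the Dnmt2-/- libraries, against 516 and 736 reads in the WT libraries, and how much of it came from reads that begin at positions 59 and 60 cannot be read from coverage. Relative to the highest coverage of the family the plateau stood at 11.4% and 8.14% in the Dnmt2-/- libraries, against 5.17% and 5.80% in the WT libraries, with no overlap between the genotypes (ratios 2.21 and 1.40). At the last row, 75.6% and 68.8% of that plateau was left in the Dnmt2-/- libraries, against 71.7% and 67.5% in the WT libraries, and the genotypes overlapped.

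The last 14 positions held 4.88% and 3.42% of valine coverage in the Dnmt2-/- libraries, against 2.24% and 2.52% in the WT libraries. The last 20 positions held 6.51% and 4.53% in the Dnmt2-/- libraries, against 3.20% and 3.32% in the WT libraries. The Dnmt2-/- libraries were higher in both windows with no overlap. The same held for 7 of the 20 families with enough reads for the last 14 positions (35%) and for 5 of them for the last 20 (25%), Val among them in both. Among the 7 were the substrate family Asp, with 33.5% and 30.6% in the Dnmt2-/- libraries against 29.5% and 24.5% in the WT libraries, and families that Dnmt2 is not known to methylate, such as Glu, Pro and Trp.

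**Figure D4:**
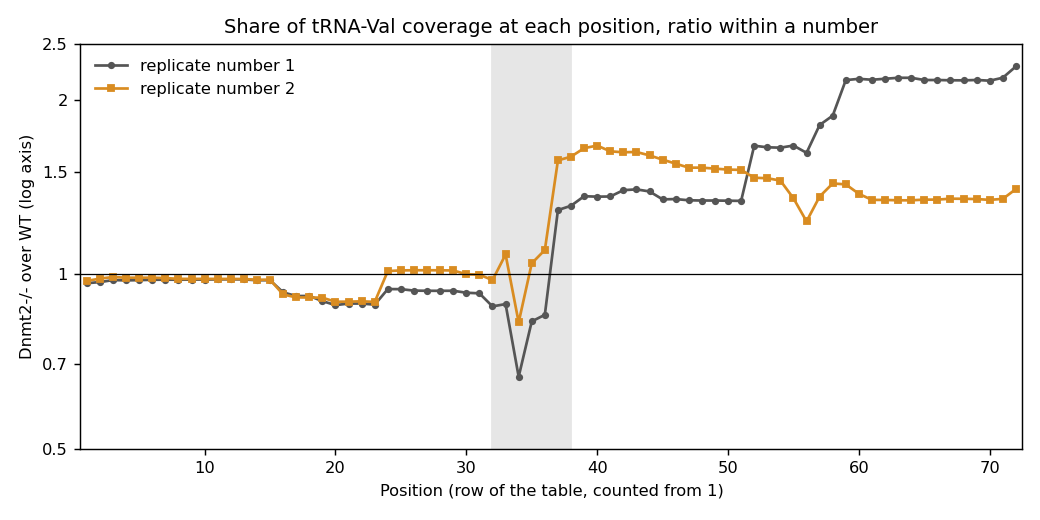
Dnmt2-/- over WT ratio of the share of tRNA-Val coverage at each position (y axis, log axis), within replicate number 1 and within replicate number 2, by position (x axis); grey marks positions 32 to 38 and the line marks a ratio of 1. Both ratios lie just under 1 up to position 23 and above 1 from position 37 on, and they cross each other near position 52.

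The split between the sides of the anticodon followed from this. Coverage at positions 1 to 34 was 86.1% and 90.3% of the valine total in the Dnmt2-/- libraries, against 91.1% and 93.2% in the WT libraries, so that the 3′ side held more in Dnmt2-/-. The means were 88.2% ± 2.91 in Dnmt2-/- and 92.1% ± 1.43 in WT (SD, n = 2 each). Both Dnmt2-/- libraries lay below both WT libraries, as in 3 of 23 families (13.0%). With limma the log2 odds difference was −0.64 (SE 0.67, 95% interval −2.02 to 0.75, adjusted p = 0.928); 0 families passed, and 0 had an unadjusted p under 0.05 (0.0%). Among the other Dnmt2 substrates it was −1.06 (SE 0.68) for Asp and 0.087 (SE 0.77) for GlyGCC.

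By position, with each library's valine coverage set to one sum, the genotypes did not overlap at 44 of 72 positions, against 30.6% of all positions. Both Dnmt2-/- libraries were higher at 20 positions, namely 52 to 54 and 56 to 72, and lower at 24, namely 1 to 23 and 34. Over all 1656 positions with coverage these shares were 14.7% above and 15.9% below. With coverage set to one sum, a higher 3′ side lowers the share of the 5′ side. As percent of the highest coverage, the valine genotypes overlapped at positions 1 to 13. Both Dnmt2-/- libraries were still lower on that scale at 14 to 23 and at 34. With each family rescaled to one total, limma called 0 of 1656 positions (0.0%). At an unadjusted p under 0.05 there were 71 (4.29%), 14 of them in tRNA-Val, where they lay at positions 57 to 69 and at 71. Neighbouring positions share reads, so these 14 mostly repeat a single plateau. On that scale the log2 difference was 0.81 (SE 0.22) at position 59, 0.83 (SE 0.28) at position 72, 0.53 (SE 0.37) at position 38 and −0.43 (SE 0.18) at position 34, each with an adjusted p of 0.966.

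On the deposited scale the replicates of a genotype lay far apart. At position 13, the highest of the 5′ side by the mean of each genotype, the signal was 0.0522 and 0.235 units in the Dnmt2-/- libraries, against 0.0655 and 0.171 units in the WT libraries. The Dnmt2-/- over WT ratio was 0.797 in number 1 and 1.37 in number 2, so the 2 numbers pointed opposite ways. At position 35, the highest of the 3′ side by the mean although it belongs to the tail of the 5′ fragments, the signal was 0.00553 and 0.0265 units in the Dnmt2-/- libraries, against 0.00820 and 0.0181 units in the WT libraries. At position 38 it was 0.00573 and 0.0183 units in the Dnmt2-/- libraries, against 0.00536 and 0.00820 units in the WT libraries, with ratios of 1.07 and 2.23. At position 59 it was 0.00494 and 0.0170 units in the Dnmt2-/- libraries, against 0.00280 and 0.00850 units in the WT libraries, with ratios of 1.76 and 2.0. From position 37 on the signal was thus higher in Dnmt2-/- in both numbers. Up to position 36 it was lower in number 1 and higher in number 2.

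Over the whole tRNA, the signal was higher in Dnmt2-/- within both numbers at 36 of 72 positions and lower within both at 0. How often positions of the other families did the same was not counted, so this count is not a result about tRNA-Val. The genotypes overlapped at all 72 positions, whereas over all families both Dnmt2-/- libraries lay above both WT libraries at 17.1% of positions and below at 0.302%. With limma on log2(signal + 1e-04), 0 of 1656 positions passed (0.0%) and 0 had an unadjusted p under 0.05. The highest estimate among the positions with the same direction in both numbers was 0.92 (SE 0.89, 95% interval −1.31 to 3.14, adjusted p = 0.999) at position 72, and the lowest was 0.58 (SE 0.86) at position 56. Without Dnmt2-/- replicate 2 the estimate at position 72 was 0.15, and without WT replicate 1 it was 0.20. It was 0.049 (SE 0.99) at position 1, 0.059 (SE 0.99) at position 2, 0.065 (SE 1.00) at position 13, −0.073 (SE 1.00) at position 23 and 0.89 (SE 0.95) at position 59. At position 59 it was 0.012 without Dnmt2-/- replicate 2 and 0.11 without WT replicate 1. Within the loop it was −0.015 (SE 1.06) at position 32, 0.065 (SE 1.07) at position 33, −0.34 (SE 1.06) at position 34, −0.0075 (SE 0.98) at position 35, 0.050 (SE 1.00) at position 36 and 0.62 (SE 0.83) at position 38. Estimates thus lay near 0 on the 5′ side and were highest at the 3′ end, below 1 standard error at positions 1 to 38 named here and just above it at position 72. The median over the valine positions was 0.33, against 0.44 over all positions.

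The amount of tRNA-Val coverage did not set the genotypes apart either. The summed coverage was 1.64 and 7.34 units in the Dnmt2-/- libraries, against 2.02 and 5.25 units in the WT libraries. As a share of the coverage of all families, which does not depend on the unexplained constant of each library, it was 1.49% and 3.86% in the Dnmt2-/- libraries, against 2.30% and 3.66% in the WT libraries. The libraries numbered 2 held more tRNA-Val than those numbered 1 in both genotypes, and Dnmt2-/- replicate 1 had the least. With limma, the log2 difference was 0.092 (SE 1.01, 95% interval −2.40 to 2.58, adjusted p = 0.973) for the sum and −0.28 (SE 0.63, 95% interval −1.55 to 0.99, adjusted p = 0.992) for the log2 odds of the share, with 0 of 23 families past the threshold and 0 at an unadjusted p under 0.05 in each (0.0%). The sum was higher in both Dnmt2-/- libraries in 5 of 23 families (21.7%), Asp and GlyGCC among them. For the other substrates the share gave 0.056 (SE 0.63) for Asp and 0.24 (SE 0.63) for GlyGCC. In total RNA, fewer cells that make these fragments and fewer fragments per cell cannot be told apart.

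**Figure D5:**
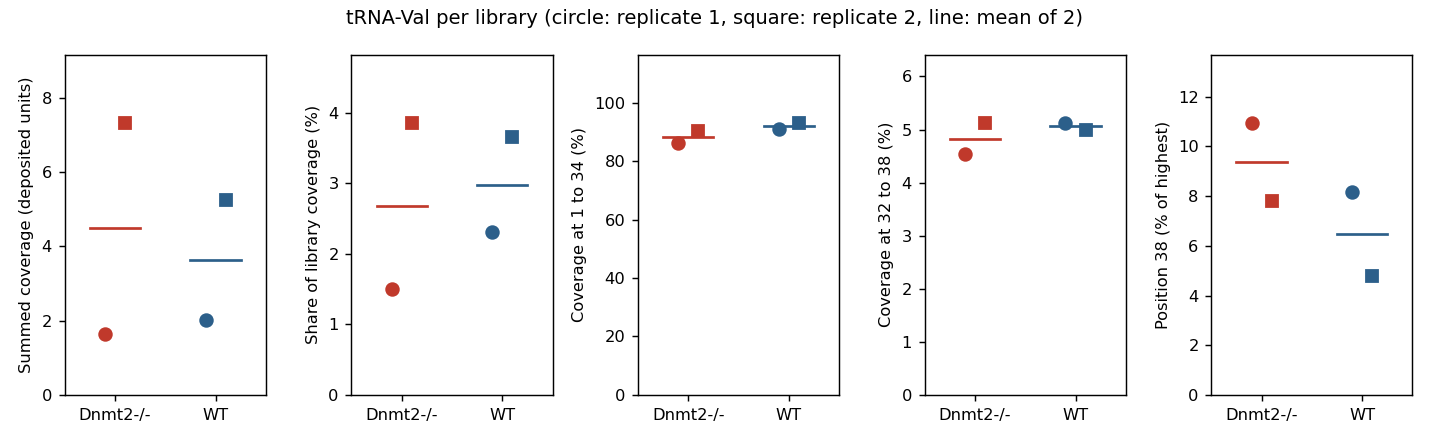
tRNA-Val in each library for 5 measures (y axes as labelled, each starting at 0): summed coverage, share of library coverage, coverage at positions 1 to 34, coverage at positions 32 to 38, and coverage at position 38 relative to the highest position. Dnmt2-/- stands left and WT right, with replicate 1 as circles, replicate 2 as squares and the mean as a line; the genotypes are free of overlap in the panel of positions 1 to 34 alone, at 86.1% and 90.3% in Dnmt2-/- against 91.1% and 93.2% in WT.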

How the data were processed

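Reads of small RNA from 4 bone marrow libraries had been mapped by the authors. Per the submitters' processing notes, CASAVA 1.8.3 and Bowtie were used. The genome build, the tRNA reference and the handling of mismatches and multiply matching reads were not given in the sources used here. The deposited tables hold signal, coverage by position, library and strand, scaled per library in a way that neither labels nor headers state, so levels between libraries depend on it and shares do not. In each library 100% of values were whole multiples of a single step (tolerance 0.01 steps). A read adds to every position it covers, so neighbouring values are not separate counts and were not fitted as such.

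The table of all glycine tRNAs was left out, since it is the sum of its parts. Tests were two-sided limma 3.58.1 fits in R 4.3.3 (Dnmt2-/- minus WT, genotype as the sole term). They ran across all 23 families, 1656 positions or 238 drops, with Benjamini-Hochberg adjustment and a threshold of 0.05. The code was checked on simulated data with a smaller spread between libraries than in these data. That check does not show what size of change could be called here. The pseudocount was 0.001 for sums and both sides of log2 odds, 1e-04 for single positions and 0.5 percent for drops, so fold changes understate low values. With 2 libraries a genotype the smallest two-sided p of an exact permutation test is 0.333. Alternatives were each library left out, the replicate number as a block, other pseudocounts, filters, windows and scalings. Named positions were the highest of each side, the 3 largest rises and drops, loop positions 32, 34, 36 and 38, and the highest and lowest estimate of one direction in both numbers. Net ends at positions 15, 16, 19, 31 and 36 were added after their values were seen. The family, the measures and these rules were chosen with earlier results of these data known.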

Additional observations from a re-analysis of the deposited data

How the results depend on the processing

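Of 248 estimates recomputed under an alternative, 208 kept their direction and their side of the threshold, 40 turned sign and 0 newly passed it. Leaving out single libraries gave a log2 difference of −0.99 to 1.17 for the valine sum, −0.98 to 0.42 for its share of the library and −0.16 to 0.015 for the loop share. The sum was negative without Dnmt2-/- replicate 2 (−0.99) or WT replicate 1 (−0.60), and the share of the library positive without Dnmt2-/- replicate 1 (0.42) or WT replicate 2 (0.066). The loop share was positive without Dnmt2-/- replicate 1 (0.015). Leave-one-out values were −0.93 to −0.35 for the 5′ share and 0.17 to 0.95 for position 38 relative to the highest position, which kept their signs. For single positions these ranges were −1.03 to 1.13 (position 1), −1.02 to 1.14 (2), −1.02 to 1.15 (13), −1.16 to 1.01 (23), −1.23 to 1.20 (32), −1.18 to 1.31 (33), −1.56 to 0.89 (34), −1.13 to 1.11 (35), −1.10 to 1.20 (36), −0.21 to 1.45 (38), −0.19 to 1.36 (56), 0.012 to 1.77 (59) and 0.15 to 1.68 (72); the last 2 kept their sign, but the estimate at position 59 was close to 0 without Dnmt2-/- replicate 2. The named net ends kept their signs under each alternative run on them, but not their size. Leaving out single libraries gave 0.69 to 0.85 at position 15, 0.56 to 1.11 at 16, 0.69 to 0.79 at 19 and 0.41 to 0.81 at 33. At position 23 it gave −1.13 (without Dnmt2-/- replicate 1) to −0.20 (without Dnmt2-/- replicate 2), at 31 0.15 (without WT replicate 1) to 0.70 (without WT replicate 2) and at 32 −0.42 (without WT replicate 1) to −0.16 (without WT replicate 2). At position 34 it gave −1.02 (without Dnmt2-/- replicate 2) to −0.44 (without Dnmt2-/- replicate 1) and at 36 −3.06 (without Dnmt2-/- replicate 2) to −0.31 (without Dnmt2-/- replicate 1). The sum of tRNA-Val gave −0.27 once library totals were equalised and −0.38 once their median families were. The loop share gave 0.079 at positions 34 to 40 and 0.0031 with row labels read as positions. With each family rescaled to one total, position 1 gave −0.043, position 2 −0.034, position 13 −0.027, position 33 −0.028 and position 36 −0.045; with library totals equalised the same positions gave −0.32, −0.31, −0.30, −0.30 and −0.31. Position 35 gave 0.014 with a 10 times larger pseudocount. Of all 238 drops, 2 passed without Dnmt2-/- replicate 1 and 1 with a 10 times smaller pseudocount, none of them in tRNA-Val. Beyond the construction of each alternative the cause was not tested.

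The labels do not say what a replicate number marks, so the numbers are not taken as pairs. Same-numbered libraries deviated together over family totals (r = 0.862, 23 families). With the replicate block the valine estimates were 0.092 for the sum (adjusted p = 0.841), −0.64 for the 5′ share (adjusted p = 0.478), 0.56 for position 38 (adjusted p = 0.495) and 0.61 for the ends at position 33 (adjusted p = 0.309), and no valine call changed; over all families it called 2 for the sum and 1 for the loop share. The fits to net ends were added after seeing the data. Depth limits the 3′ side most, with 250 to 486 reads at position 58.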

Other observations

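The reverse-strand columns of tRNA-Val held 3 and 0 reads at their highest position in the Dnmt2-/- libraries (replicates 1 and 2), against 6 and 4 reads in the WT libraries. In Dnmt2-/- replicate 1 the reverse coverage summed to 0.0400% of the forward coverage, against 0.0430% in WT replicate 1 and 0.0160% in WT replicate 2.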
